A study of Rattus norvegicus with 17 samples.

Results

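Protein kinase A, the cyclic AMP-dependent protein kinase, was followed here through 9 genes: 4 regulatory subunits (Prkar1a, Prkar1b, Prkar2a and Prkar2b), 2 catalytic subunits (Prkaca and Prkacb) and 3 anchor proteins (Sphkap, Akap12 and Akap1). All probe sets that the array's annotation assigns to a single gene among them were taken, which gave 19 of the 31099 probe sets and 9 of the 14218 genes with such a probe set. Of these, 16 probe sets passed the filter on low signal and were tested. All 9 genes have at least 1 tested probe set.

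The tissue was the gubernaculum of male Long Evans rat fetuses at gestational day 17, the embryonic ligament between testis and abdominal wall that enlarges as the testis descends. Bulbs of the gubernaculum were explanted and kept for 24 h in hormone-free medium, then for another 24 h with either no Insl3, 10 nM Insl3 or 100 nM Insl3. Insl3 (insulin-like 3) is a peptide hormone of fetal Leydig cells. Every group received the same medium, with charcoal-stripped serum and an insulin, transferrin and selenium supplement, so the controls were also exposed to insulin. The comparisons rest on 15 arrays: 6 from control cultures, 3 with 10 nM Insl3 and 6 with 100 nM Insl3. A replicate was a pool of 2 bulbs and 1 array, called biological by the labels, which do not say whether the bulbs came from different litters. Replicates 4 and 5 at 10 nM were set aside by the submitters as outliers, and their values are given apart. Signals are log2 values of the GCRMA procedure, and a difference of 1 is a 2-fold change.

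Pairs of the 15 arrays correlated at 0.978 to 0.996 across probe sets, and their medians lay between 4.29 and 4.39. Mesenchymal markers were detected in every group, at levels that differed widely between genes. The collagen gene Col1a1, among the strongest, averaged 14.90 in controls, 14.94 at 10 nM and 14.96 at 100 nM. The transcription factor Osr2 averaged 6.89, 7.51 and 7.93. Skeletal muscle markers were also high, with a summed signal of 17.17 to 17.39 in controls. These are bulk signals, in which fewer cells of a type and less RNA per cell cannot be told apart.

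Protein kinase A rests as a complex in which a dimer of regulatory subunits holds catalytic subunits inactive. Cyclic AMP binds the regulatory subunits and frees the catalytic subunits, which phosphorylate enzymes, channels and transcription factors of the CREB family. Anchor proteins bind the regulatory dimer and fix the kinase at a place in the cell, such as the plasma membrane or the mitochondrion. The receptor of Insl3, Rxfp2, is coupled to G proteins and known to raise cyclic AMP in gubernacular cells. Rxfp2 itself was not analysed here.

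Insl3 was accompanied by higher signal of 3 of the 9 genes: the anchor protein Sphkap and the regulatory subunits Prkar2b and Prkar1a. All 3 were higher at both doses. The catalytic subunit Prkacb was slightly lower at 100 nM by 1 of its 2 tested probe sets, in a call that several other settings did not keep. The other 5 genes, Akap12, Akap1, Prkar1b, Prkar2a and Prkaca, had no called probe set. A call is an adjusted p under 0.05 in limma, after Benjamini-Hochberg adjustment over all 18938 probe sets tested. At 10 nM against control, 4 of 16 probe sets were called, all higher, beside 10.6% of all probe sets in either direction and 4.88% in the higher direction. At 100 nM against control, 5 of 16 were called, 4 higher and 1 lower, beside 10.9% of all probe sets, 6.51% higher and 4.39% lower. Both comparisons share the control arrays. The genes, and the lists below, were chosen with earlier results of these data known. Their shares and ranks beside all probe sets are therefore a description, not a test. The median log2 change of the 16 was 0.03 at 10 nM, the same as over all probe sets (0.03), and 0.04 at 100 nM, against -0.0003 over all probe sets.

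The promoters of the 3 genes that were higher at both doses, and of Prkacb for contrast, are shown to place these genes and their sequence features. They are RefSeq sequences on the rat build GRCr8, from 250 bases before to 50 bases after the annotated transcript start, 5′ to 3′ on the gene's strand. They lie at chr9:92105576-92105875 on the minus strand (Sphkap), chr6:54381362-54381661 on the minus strand (Prkar2b), chr10:95120287-95120586 on the plus strand (Prkar1a) and chr2:238386266-238386565 on the minus strand (Prkacb). Capitals mark GC boxes (GGGCGG, or CCGCCC on the other strand) and the 5-base core of the cyclic AMP response element (TGACG, or CGTCA on the other strand).
Sphkap: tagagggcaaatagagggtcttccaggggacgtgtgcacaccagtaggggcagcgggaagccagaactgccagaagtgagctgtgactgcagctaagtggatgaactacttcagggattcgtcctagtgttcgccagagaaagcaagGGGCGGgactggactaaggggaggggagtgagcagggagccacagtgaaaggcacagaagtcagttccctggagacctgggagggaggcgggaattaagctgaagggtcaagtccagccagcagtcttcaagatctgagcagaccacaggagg
Prkar2b: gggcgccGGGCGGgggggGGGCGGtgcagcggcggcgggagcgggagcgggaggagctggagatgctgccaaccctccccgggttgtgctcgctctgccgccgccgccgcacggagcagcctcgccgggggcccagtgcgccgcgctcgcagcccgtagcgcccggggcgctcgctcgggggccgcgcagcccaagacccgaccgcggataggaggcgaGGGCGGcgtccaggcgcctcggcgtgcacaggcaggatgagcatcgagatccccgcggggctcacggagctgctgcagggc
Prkar1a: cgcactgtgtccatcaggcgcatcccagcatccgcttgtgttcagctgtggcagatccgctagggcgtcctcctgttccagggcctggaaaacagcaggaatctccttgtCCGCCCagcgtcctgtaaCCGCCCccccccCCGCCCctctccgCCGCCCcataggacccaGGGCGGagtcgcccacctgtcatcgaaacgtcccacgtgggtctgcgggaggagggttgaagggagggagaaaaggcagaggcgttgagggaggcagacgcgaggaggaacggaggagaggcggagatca
Prkacb: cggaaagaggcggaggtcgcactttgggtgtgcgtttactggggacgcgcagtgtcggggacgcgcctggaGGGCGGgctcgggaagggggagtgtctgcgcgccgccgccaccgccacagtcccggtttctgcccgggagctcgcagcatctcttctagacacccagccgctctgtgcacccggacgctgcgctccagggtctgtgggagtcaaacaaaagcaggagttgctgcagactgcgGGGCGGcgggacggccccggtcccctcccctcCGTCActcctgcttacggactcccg
The full 8-base cyclic AMP response element, TGACGTCA, which contains the core on both strands, stood in none of the 9 promoters found for 8 of the 9 genes (Prkar1b has 2). It stood in 1.83% of all 33469 rat promoters of this length. The core was found in the windows of Prkacb (1 match) and Prkaca (2 matches), and in 21.2% of all promoters. GC boxes stood in 7 of the 9 promoters and in 33.1% of all, with 1 in Sphkap, 3 in Prkar2b, 5 in Prkar1a and 2 in Prkacb. The Sphkap window held 57.0% G and C, the Prkar2b window 79.0% and the Prkar1a window 65.3%. A match describes these letters only. Prkar2a had no entry in the promoter table.

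Sphkap, which binds type I regulatory subunits and was first known as a partner of sphingosine kinase, had the largest change of the 9 genes. Its probe set 1374168_at ran from 4.23 to 5.37 in controls (median 4.63). It read 8.26, 7.91 and 8.05 at 10 nM, and 7.13 to 8.74 at 100 nM (median 7.83). Every Insl3 array lay above every control array, with a gap of 1.76 log2 units between the lowest 100 nM array and the highest control. Means were 4.74 ± 0.50 (SD, n = 6) in controls, 8.07 ± 0.18 (n = 3) at 10 nM and 7.99 ± 0.63 (n = 6) at 100 nM. Sphkap rose by 3.33 ± 0.34 (SE) at 10 nM, a 10.1-fold change (limma, adjusted p = 8.47e-05), and by 3.25 ± 0.28 at 100 nM, a 9.49-fold change (adjusted p = 7.32e-06). Of all 18938 probe sets tested, 15 moved at least this far at 10 nM and 24 at 100 nM, Sphkap included. The second Sphkap probe set, 1397828_at, stayed near the array floor, between 2.12 and 2.26 on all 15 arrays, and was not tested. The rise of Sphkap thus rests on 1 probe set.

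**Figure D1:**
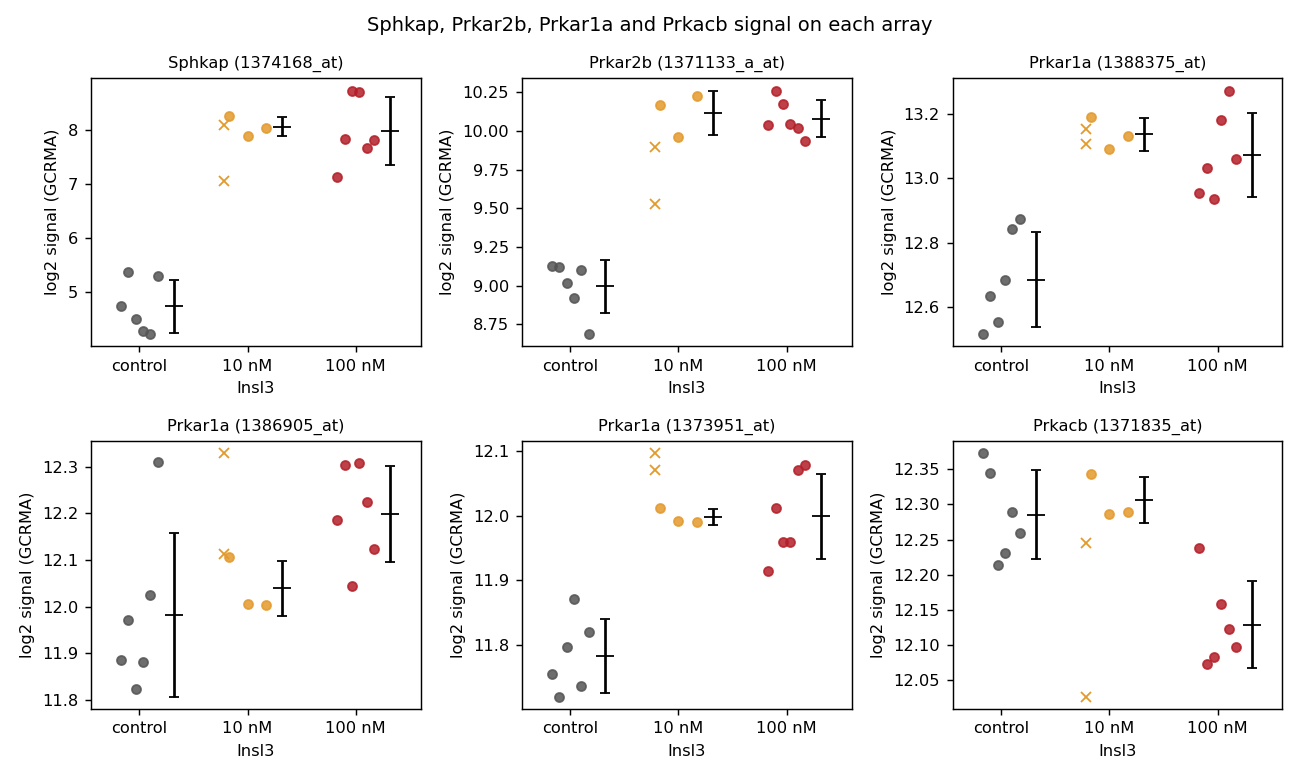
GCRMA log2 signal of 6 probe sets of Sphkap, Prkar2b, Prkar1a and Prkacb, by Insl3 dose (control, 10 nM, 100 nM). Points are arrays, crosses are the 2 set-aside 10 nM arrays, and bars are mean ± SD without them (n = 6, 3 and 6). Each panel has its own scale. Sphkap, Prkar2b and 2 of the 3 Prkar1a probe sets have no Insl3 array among the controls, while 1386905_at (Prkar1a) and 1371835_at (Prkacb) overlap at 100 nM.

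Akap12, a large scaffold that anchors the kinase near the plasma membrane with protein kinase C and receptors, was abundant and uncalled. By 1368869_at it ran from 10.81 to 11.59 in controls (median 11.24), read 11.13, 11.44 and 11.47 at 10 nM, and ran from 10.52 to 11.77 at 100 nM (median 10.98). By 1368868_at it ran from 6.32 to 7.37 in controls, 6.43 to 6.97 at 10 nM and 6.10 to 7.05 at 100 nM. The groups overlapped by both probe sets. The log2 differences from control were 0.15 and -0.06 at 10 nM and -0.21 and -0.23 at 100 nM, with adjusted p from 0.526 to 0.935 (limma). The 95% interval at 100 nM, -0.62 to 0.20 for 1368869_at, includes 0.

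Akap1, which anchors the kinase at the outer mitochondrial membrane, was also uncalled. By its strongest probe set, 1383358_at, it ran from 9.89 to 10.29 in controls, 10.23 to 10.38 at 10 nM and 10.05 to 10.39 at 100 nM. Its log2 difference from control was 0.18 (95% interval -0.02 to 0.39) at 10 nM and 0.04 (-0.13 to 0.21) at 100 nM. The probe set 1369069_at spread over 5.41 to 6.88 within the controls alone, wider than either Insl3 group, and differed from control by -0.13 at 10 nM and -0.03 at 100 nM. The third tested probe set, 1388070_a_at, was at its floor of 2.19 on most arrays.

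Prkar2b, the type II beta regulatory subunit, rose at both doses. Its only probe set, 1371133_a_at, ran from 8.69 to 9.13 in controls (median 9.06). It read 10.17, 9.96 and 10.22 at 10 nM, and 9.93 to 10.26 at 100 nM (median 10.04). No Insl3 array fell below any control, and the SD within a group was 0.17 in controls (n = 6), 0.14 at 10 nM (n = 3) and 0.12 at 100 nM (n = 6). The change was 1.12 ± 0.10 (SE) at 10 nM, or 2.17-fold (limma, adjusted p = 3.96e-05), and 1.08 ± 0.08 at 100 nM, or 2.12-fold (adjusted p = 2.58e-06).

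Prkar1a, the type I alpha regulatory subunit that most tissues express, rose by 2 of its 3 probe sets. By 1388375_at it ran from 12.52 to 12.87 in controls (median 12.66), read 13.19, 13.09 and 13.13 at 10 nM, and ran from 12.94 to 13.27 at 100 nM (median 13.05). The change was 0.45 ± 0.09 at 10 nM, or 1.37-fold (limma, adjusted p = 0.00663), and 0.39 ± 0.08 at 100 nM, or 1.31-fold (adjusted p = 0.0059). By 1373951_at the controls ran from 11.72 to 11.87, the 10 nM arrays read 12.01, 11.99 and 11.99, and the 100 nM arrays ran from 11.91 to 12.08. The groups did not overlap by either probe set, though here the step was only 1.16-fold at both doses (adjusted p = 0.0215 at 10 nM and 0.00804 at 100 nM). The call of 1373951_at at 10 nM was lost whenever any of the 3 10 nM arrays was left out (adjusted p up to 0.0814).

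The third Prkar1a probe set, 1386905_at, was not called. It ran from 11.82 to 12.31 in controls, 12.00 to 12.11 at 10 nM and 12.05 to 12.31 at 100 nM, and its groups overlapped. Its log2 difference was 0.06 at 10 nM and 0.22 (95% interval 0.05 to 0.38) at 100 nM (limma, adjusted p = 0.773 and 0.0986). Control replicate 6 stood highest of the controls at 12.31, and without that array the 100 nM difference was 0.28 (limma, adjusted p = 0.00805). In the other 14 fits without 1 array it was not called (adjusted p up to 0.183). The 3 probe sets of Prkar1a thus differ in their calls at both doses.

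Prkar1b, the type I beta subunit best known from neurons, was not called. By 1389463_at it ran from 8.66 to 9.72 in controls (median 9.40), read 9.30, 9.39 and 9.43 at 10 nM, and ran from 9.50 to 9.89 at 100 nM (median 9.60). The controls spanned the whole 10 nM group and most of the 100 nM group. The difference was 0.04 at 10 nM and 0.32 ± 0.15 at 100 nM (limma, adjusted p = 0.934 and 0.194). The 10 nM and 100 nM arrays did not overlap with each other, and the difference between them, 0.28 (95% interval -0.11 to 0.67), was not called either.

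Prkar2a, the type II alpha subunit, differed little between groups. By 1373400_at it ran from 12.11 to 12.28 in controls, 12.09 to 12.14 at 10 nM and 12.06 to 12.25 at 100 nM. The 95% intervals of the difference from control were -0.21 to 0.05 at 10 nM and -0.14 to 0.07 at 100 nM. Its other probe sets carried little signal. The probe set 1375620_at read 2.11 on all 15 arrays and was not tested, and 1371059_at reached at most 3.38 on any array.

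Of the catalytic subunits, Prkaca, the widely expressed alpha form, was not called. By its only probe set, 1371578_at, it ran from 10.27 to 10.60 in controls (median 10.44), read 10.24, 10.30 and 10.57 at 10 nM, and ran from 10.34 to 10.79 at 100 nM (median 10.51). The groups overlapped. The difference was -0.05 (95% interval -0.29 to 0.19) at 10 nM and 0.12 (-0.07 to 0.32) at 100 nM.

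Prkacb, the beta catalytic subunit, was lower at 100 nM by its strongest probe set, 1371835_at. It ran from 12.21 to 12.37 in controls (median 12.27), read 12.34, 12.29 and 12.29 at 10 nM, and ran from 12.07 to 12.24 at 100 nM (median 12.11). At 100 nM 5 of 6 arrays lay below every control, and replicate 1, at 12.24, lay among them. It fell by 0.16 ± 0.05 at 100 nM, a 1.11-fold decrease (limma, adjusted p = 0.041), and differed by 0.02 at 10 nM (adjusted p = 0.862). Leaving out a single array ended the call in 12 of the 15 cases (adjusted p up to 0.0836). The second probe set, 1384772_at, ran from 7.90 to 8.35 in controls, 7.80 to 7.83 at 10 nM and 7.48 to 8.11 at 100 nM. It differed by -0.31 at 10 nM, where the groups did not overlap, and by -0.29 at 100 nM, and neither difference was called (adjusted p = 0.188 and 0.114). The third, 1370746_at, stayed between 2.11 and 2.26 and was not tested.

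**Figure D2:**
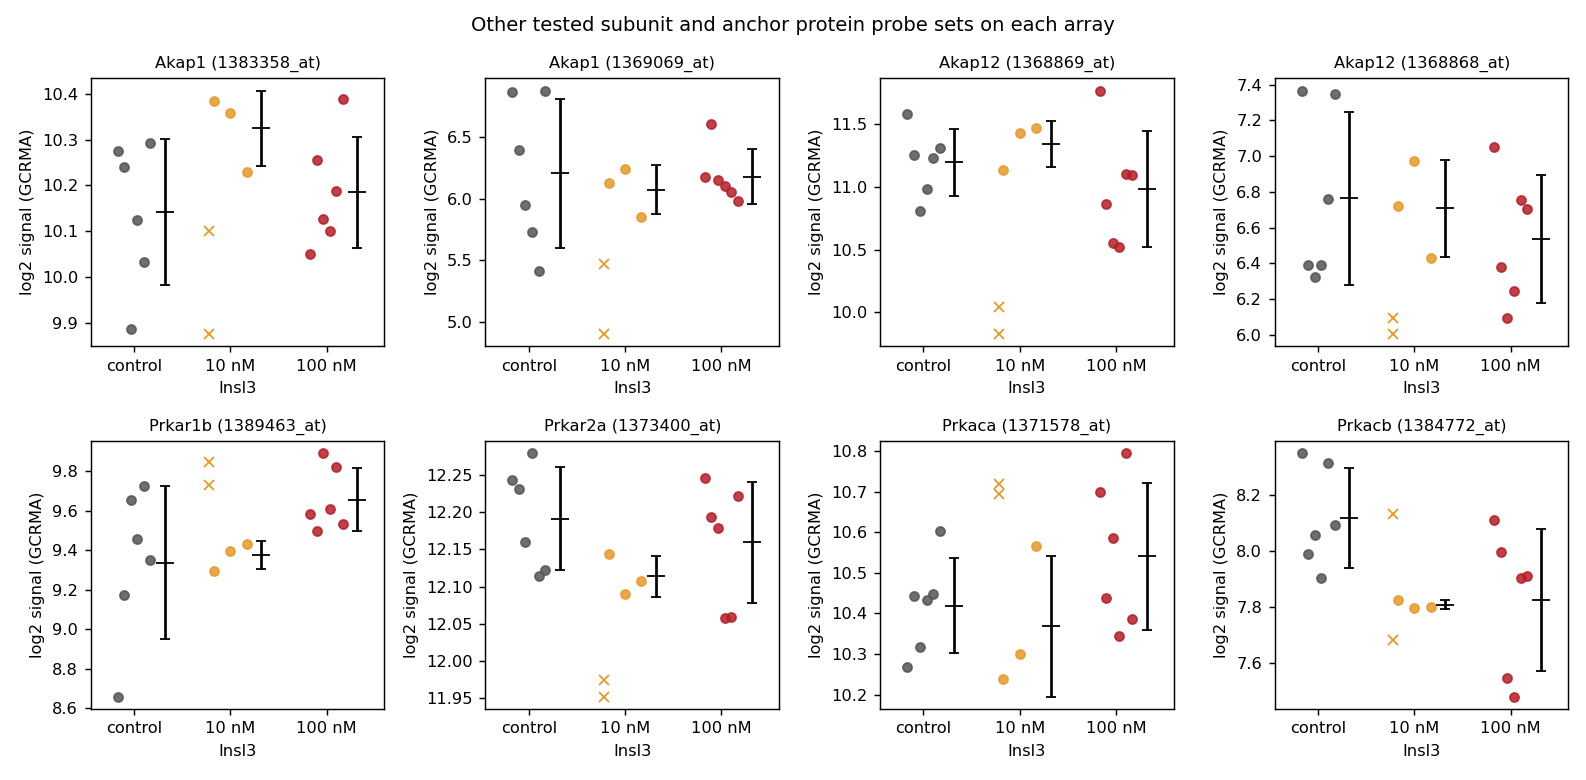
GCRMA log2 signal of 8 further probe sets of Akap1, Akap12, Prkar1b, Prkar2a, Prkaca and Prkacb, by Insl3 dose. Points are arrays, crosses are the 2 set-aside 10 nM arrays, and bars are mean ± SD without them (n = 6, 3 and 6). Each panel has its own scale. The control and 100 nM arrays overlap in every panel. The tested probe sets 1371059_at (Prkar2a) and 1388070_a_at (Akap1), near the floor, are not drawn.

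Between the groups, 4 of 16 probe sets had no overlap at 100 nM against control, where 4.96% of all probe sets had none, and 5 of 16 at 10 nM against control, where 17.0% had none. The 4 at 100 nM belonged to Sphkap, Prkar2b and Prkar1a. The fifth at 10 nM was 1384772_at of Prkacb, which was not called.

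The doses were also set against each other, to ask whether the higher dose gave more. None of the 16 probe sets was called at 100 nM against 10 nM, a comparison in which 1.43% of all probe sets were called, 1.24% higher and 0.195% lower. At an unadjusted p under 0.05, 1 was, 1371835_at of Prkacb, with a difference of -0.18 (95% interval -0.30 to -0.06, limma adjusted p = 0.15). For Sphkap the difference was -0.09, with an interval of -0.83 to 0.65, which leaves room for a change of either sign. Prkar2b was measured more closely, at -0.04 with an interval of -0.26 to 0.19. For Prkar1a the 2 called probe sets differed by -0.06 (-0.27 to 0.14) and 0.00 (-0.12 to 0.12). Groups did not overlap between the doses for 3 probe sets, those of Prkar1b (1389463_at), Prkar2a (1371059_at) and Prkacb (1371835_at), against 7.85% of all probe sets.

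**Figure D3:**
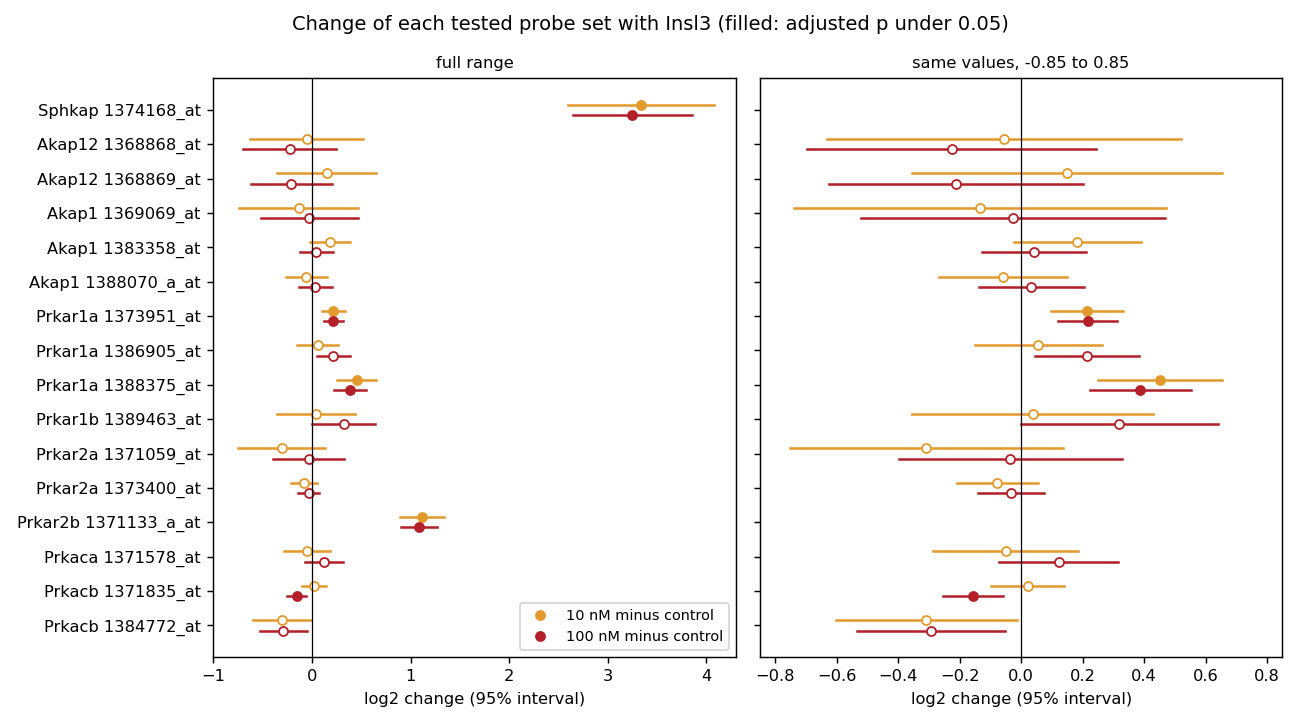
Log2 change from control for each of the 16 tested probe sets, at 10 nM (orange) and 100 nM (red). Points are limma estimates, bars are 95% intervals, and filled points are called (adjusted p under 0.05). The left panel has the full range and the right panel enlarges the values near 0. Sphkap lies at 3.33 and 3.25 and Prkar2b at 1.12 and 1.08, and the remaining intervals reach no further than -0.75 and 0.65.

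Within the groups, replicates 1, 2 and 6 separated from replicates 3, 4 and 5 on the first principal component of the deviations from group means, which held 27.3% of that variance. No batch in the labels matches these sets. The changes at 100 nM were therefore also taken within each set of 3 against 3. The sets were found in these same arrays, and dividing along that component narrows the spread within a set. Changes and calls within a set, here and below, are therefore a description and not independent support. Sphkap rose by 2.46 in replicates 1, 2 and 6 (limma, adjusted p = 0.0169) and by 4.04 in replicates 3, 4 and 5 (adjusted p = 0.00763). Its 100 nM arrays averaged 7.60 in the first set and 8.37 in the second, against control means of 5.14 and 4.34. The difference between the sets was not tested. Prkar2b rose by 1.10 and 1.07 in these sets (adjusted p = 0.0369 and 0.00699). The Prkar1a probe sets kept their direction, at 0.34 and 0.43 (1388375_at) and 0.24 and 0.20 (1373951_at), but neither was called within a set. Prkacb (1371835_at) differed by -0.19 and -0.12, also uncalled. At 10 nM, where only replicates 1 and 2 fall in the first set, Sphkap rose by 2.94 (adjusted p = 0.00717) and Prkar2b by 1.08 (adjusted p = 0.0282).

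Some markers of other cells in a whole explant also differed at these doses. Of 9 tested endothelial markers, 3 (Cldn5, Kdr and Ramp2) were higher at both doses, and the other 6 were not called. Over all genes, 5.54% were higher at 10 nM and 8.15% at 100 nM. Cldn5 rose by 1.60 at 10 nM and 2.83 at 100 nM. Emcn differed by -0.63 at 10 nM and -0.42 at 100 nM, Esam by -0.16 and -0.37, and Pecam1 by 0.22 and 0.01. The 10 nM and control arrays did not overlap for Emcn, as for 17.0% of all probe sets. The summed endothelial signal, to which the strong signals of Cldn5, Kdr and Ramp2 contribute most, ran from 11.69 to 12.23 in controls, 12.51 to 13.00 at 10 nM and 13.01 to 13.54 at 100 nM, while Tek and Vwf were below the filter. Of 3 tested Schwann cell markers, Ngfr was higher at both doses and Mbp lower at 100 nM, and the summed signal ran from 8.94 to 9.68 in controls, 10.35 to 10.68 at 10 nM and 10.31 to 11.09 at 100 nM. Sox10 and Erbb3, also on the Schwann cell list, were below the filter.

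Blood cell markers moved the other way at 100 nM. Of 11 erythroid markers 6 were lower, of 4 granulocyte markers 3 and of 14 macrophage and leukocyte markers 5, while none of these was called at 10 nM. Over all genes, 3.98% were lower and 8.15% higher at 100 nM. The summed granulocyte signal ran from 9.59 to 13.28 in controls, 10.54 to 12.46 at 10 nM and 5.16 to 9.83 at 100 nM. The erythroid sum, which the strong Hbb signal dominates, ran from 16.51 to 17.07 in controls, 16.44 to 16.83 at 10 nM and 15.43 to 16.75 at 100 nM. Hbb averaged 16.60 in controls and differed by an uncalled -0.44 at 100 nM. The median log2 change of the 11 erythroid markers at 100 nM was -2.57. The macrophage and leukocyte sum ran from 13.98 to 14.44 in controls, 13.73 to 14.29 at 10 nM and 13.47 to 14.31 at 100 nM. The mesenchymal sum, which the strong collagen signals dominate, ran from 17.65 to 17.78 in controls, 17.64 to 17.67 at 10 nM and 17.62 to 17.73 at 100 nM. Within that list, 1 of 10 genes was higher at 100 nM, the transcription factor Osr2 (1.04), and 2 were lower, the small proteoglycans Lum (-0.35) and Dcn (-0.19). Dcn was also lower at 10 nM (-0.24), and a further probe set of Twist1 was higher at 100 nM (1.20).

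Smooth muscle, fat and nerve markers moved in both directions. Of 7 smooth muscle markers, Mylk fell by 0.35 at 10 nM and 0.60 at 100 nM, Tagln fell by 0.43 at 10 nM and Myh11 rose by 2.65 at 10 nM, with an uncalled 1.81 at 100 nM. The smooth muscle sum ran from 12.90 to 13.15 in controls, 12.65 to 12.90 at 10 nM and 12.57 to 12.89 at 100 nM. Of 5 adipocyte markers, Cfd rose by 1.49 at 10 nM and 2.02 at 100 nM, and Fabp4 and Cd36 fell by 1.28 and 0.81 at 100 nM, while Adipoq, Plin1 and Pparg were below the filter. The adipocyte sum ran from 11.33 to 11.46 in controls, 11.44 to 11.55 at 10 nM and 10.99 to 11.48 at 100 nM. Of 8 neuronal markers, Uchl1 rose by 0.72 at 100 nM, and the sum ran from 12.16 to 12.42 in controls, 12.00 to 12.25 at 10 nM and 12.16 to 12.63 at 100 nM. Of 14 skeletal muscle markers, Myod1 fell by 0.32 at 100 nM. The part of these cell markers in the Sphkap, Prkar2b, Prkar1a and Prkacb results was not tested.

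For each called probe set, the genes with the most similar pattern over the 15 arrays were taken by Pearson's r, as a description, since all points share the same arrays and dose groups. Sphkap was closest to Wnt4 (r = 0.97), Chrdl2 (0.97) and Tmem132c (0.96). With group means removed, r was 0.87 for Wnt4, 0.50 for Chrdl2 and 0.60 for Tmem132c. Prkar2b was closest to Chrdl2 (0.98), Kitlg (0.98) and Gda (0.97), with r of 0.57, 0.72 and 0.37 once group means were removed. For Prkar1a the nearest genes differed between its 2 called probe sets: Usp36, Nomo1 and Arhgef7 (0.95, 0.93 and 0.93) for 1388375_at, and Pdia5, Slc19a2 and Cbarp (0.95, 0.93 and 0.93) for 1373951_at. Prkacb was closest to Hpgds (0.90), Parp16 (0.85) and Mef2a (0.85).

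Around the kinase, 9 lists of cyclic AMP pathway genes held 111 genes, of which 75 were tested, each by its strongest probe set. At 10 nM 9 of the 75 were called, 6 higher and 3 lower, where 5.54% of all 10665 genes were higher and 3.13% lower. At 100 nM 15 were called, 11 higher and 4 lower, where 8.15% of all genes were higher and 3.98% lower. The kinase's own inhibitors, Pkia, Pkib and Pkig, and the related kinase Prkx had no call at either dose, and Pkib, the inhibitor with the largest difference, was at -0.79 at 10 nM and -0.56 at 100 nM.

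Other anchor proteins mostly did not pass the test. Of 21 tested, 1 was higher and 1 lower at each dose, and their median log2 change was 0.08 at 10 nM and 0.01 at 100 nM, beside 0.06 and 0.02 over all genes. Myrip, an anchor protein that links Rab27a on secretory vesicles to myosin, averaged 6.04 in controls, 7.56 at 10 nM and 7.74 at 100 nM. It rose by 1.52 at 10 nM and 1.70 at 100 nM (limma, adjusted p = 0.00206 and 0.000197). Its other probe set rose too, by 1.16 and 1.20. Nbea, a large vesicle-traffic protein that binds type II regulatory subunits, fell by 0.35 at 100 nM (adjusted p = 0.0398). Cbfa2t3, a transcriptional corepressor also described as an anchor protein, fell by 1.09 at 10 nM by its strongest probe set. That probe set differed by 0.13 at 100 nM, and the 1.22 between the doses was itself called (adjusted p = 0.0398). That call between the doses held in 5 of 15 fits without 1 array and was lost within replicates 1, 2 and 6 (adjusted p = 0.256). The other tested probe sets of Cbfa2t3 differed upward at 10 nM, by 0.27, 0.06 and 0.17, and none was called. Between the doses they differed by 0.10, 0.21 and -0.05, also uncalled.

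Counted by all 37 probe sets of these 21 anchor proteins, 7 were lower at 10 nM, from 6 genes, beside 5.70% of all probe sets. They were single or paired probe sets of Acbd3 (-1.72), Akap9 (-1.69), Pakap (-1.68 and -1.42), Cbfa2t3 (-1.09), Akap8l (-1.05) and Akap13 (-0.95). Acbd3 is a Golgi protein that binds type I regulatory subunits, Akap9 a scaffold of centrosome and Golgi, and Akap8l a nuclear protein. For Acbd3, Akap9, Pakap, Akap8l and Akap13 the strongest probe set was not called, so probe sets of the same gene differ in their calls. For Cbfa2t3 the strongest was called and the others were not. None of these 7 was called at 100 nM, and the difference between the doses was called for Acbd3 (1.34, adjusted p = 0.036) and Cbfa2t3 only. For Acbd3 it held in 6 of 15 fits without 1 array. A further probe set of Akap11 rose by 0.43 at 10 nM (adjusted p = 0.0497), a call that held in 4 of 15 such fits and was lost within replicates 1, 2 and 6 (adjusted p = 0.162).

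Upstream of the kinase, Adcy6, an adenylyl cyclase that makes cyclic AMP, rose by 0.57 at 10 nM and 0.56 at 100 nM (limma, adjusted p = 0.0498 and 0.0215), and the other 2 cyclases tested did not pass. The Adcy6 call at 10 nM held in 3 of 15 fits without 1 array. At 100 nM its change was 0.22 within replicates 1, 2 and 6 (adjusted p = 0.626) and 0.90 within replicates 3, 4 and 5 (adjusted p = 0.00846). None of 6 receptor and G protein genes was called by its strongest probe set. A further probe set of the G protein subunit Gnb1 rose by 0.34 at 100 nM, while its strongest differed by -0.04. The cyclic AMP exchange factors, which respond to cyclic AMP without the kinase, gave no call among 2 tested.

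Phosphodiesterases, which degrade cyclic AMP, held the largest change of the 75 genes, that of Pde10a. Of 9 tested, 2 were higher and 1 lower at 10 nM, and 4 were higher and 1 lower at 100 nM. Pde10a rose by 3.65 at 10 nM and 3.63 at 100 nM, and Pde8a by 1.71 and 1.67. Pde4d rose by 0.95 and Pde4b by 0.79 at 100 nM, with uncalled differences of 0.24 and 0.46 at 10 nM. Pde2a fell by 0.51 at 10 nM and 0.61 at 100 nM. The list's median was 0.24 at 10 nM and 0.37 at 100 nM, beside 0.06 and 0.02 over all genes.

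Downstream, 8 genes of the CREB family and its coactivators were tested. Crem, a cyclic AMP-responsive member of that family, rose by 0.80 at 10 nM and 1.48 at 100 nM, and Crtc2, a CREB coactivator, rose by 0.45 at 100 nM. Crebbp, the CREB-binding acetyltransferase, fell by 1.80 and 1.35 at 10 nM by 2 further probe sets, while its strongest differed by 0.05. Of 10 genes known to be induced by cyclic AMP in other cells, 1 was higher at 10 nM and 3 at 100 nM, and none was lower. The clock gene Per1 rose by 0.81 at 10 nM and 1.09 at 100 nM. The nuclear receptors Nr4a1 and Nr4a2 rose by 2.20 and 1.94 at 100 nM, with uncalled differences of 0.46 and 0.98 at 10 nM. The Nr4a1 signal was low, averaging 2.79 in controls, 3.25 at 10 nM and 4.99 at 100 nM. Uncalled at both doses were Fos (-0.94 at 10 nM and -0.30 at 100 nM), Junb (-0.57 and -0.39) and Dusp1 (-0.17 and -0.07). Also uncalled were Nr4a3 (0.20 and 0.93), Sik1 (0.15 and 0.50), Rgs2 (0.24 and 0.23) and Nfil3 (0.06 and 0.18). Between the doses, 2 of the 75 pathway genes were called, Nr4a1 and Cbfa2t3, both higher at 100 nM, where 0.628% of all genes were higher and 0.150% lower. Nr4a1 was higher by 1.73 (limma, adjusted p = 0.0011).

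A list of phosphatases that oppose the kinase, together with substrates of the kinase, had 12 tested genes, and none was higher. Ppp3ca, the calcineurin catalytic subunit, fell by 0.33 at 10 nM and 0.22 at 100 nM, and Vasp, an actin regulator phosphorylated by the kinase, fell by 0.24 at 100 nM. Of the 15 pathway genes called at 100 nM, 4 were also called within replicates 1, 2 and 6 and 10 within replicates 3, 4 and 5. Of the 15, 12 kept their call in every fit without 1 array, and Nbea, Ppp3ca and Vasp did not. Of the 9 called at 10 nM, 2 kept it in every such fit, Myrip and Pde10a. Of the 14 further probe sets of pathway genes called at 10 nM, 8 did so, and of the 9 at 100 nM, 7. Between the doses, Nr4a1 was called in every such fit.

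**Figure D4:**
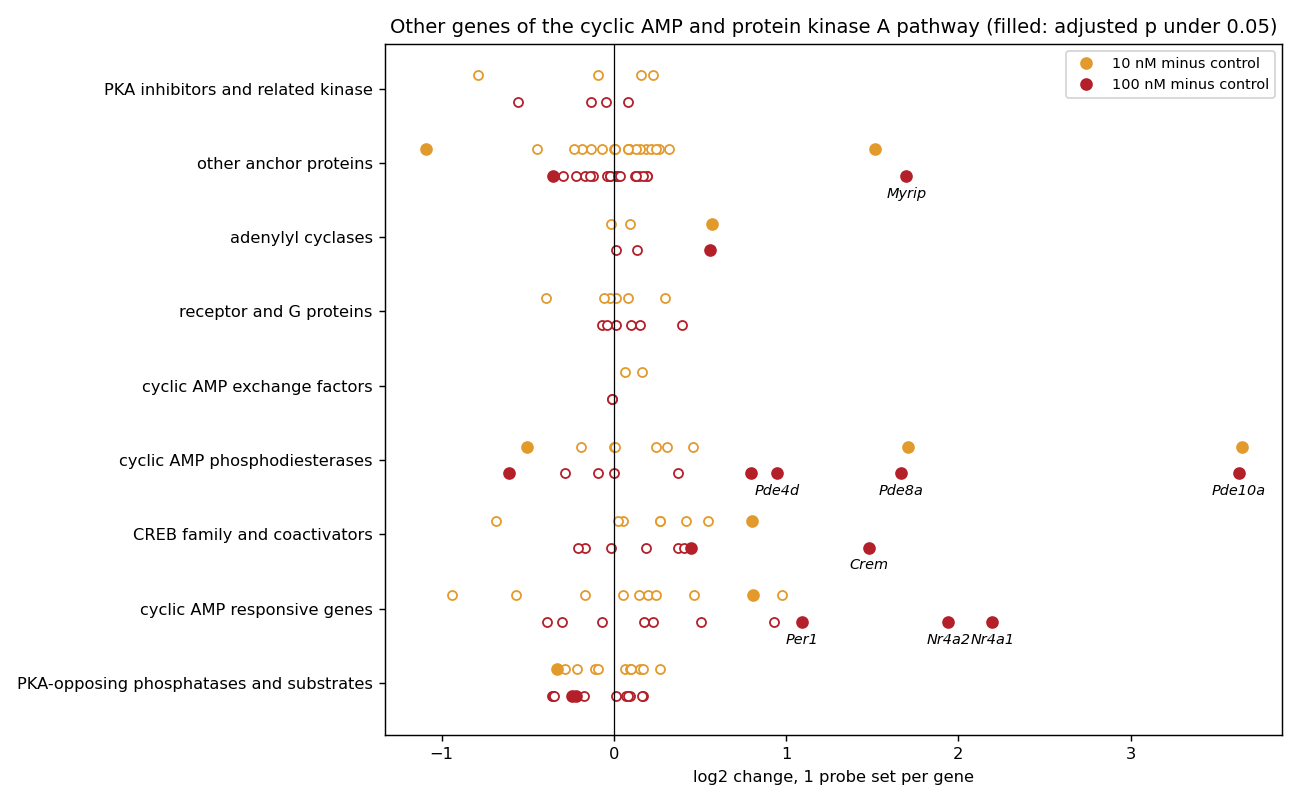
Log2 change from control of 75 cyclic AMP pathway genes, 1 probe set each, at 10 nM (orange) and 100 nM (red), by list. Filled points are called (limma, adjusted p under 0.05). Pde10a, at 3.65 and 3.63, lies farthest from 0, and Myrip, at 1.52 and 1.70, farthest among the other anchor proteins.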

How the data were processed

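Per the labels, 150 ng of total RNA from each pair of cultured bulbs was amplified, labelled with biotin and hybridised to 1 Affymetrix array. The authors deposited log2 values per probe set, made with GCRMA, per the submitters' processing notes. GCRMA corrects background from probe sequence, normalizes between arrays and summarises probes, so values near 2.1 are a floor at which changes are compressed. Neither its version nor the base of the logarithm is given in the sources used here; base 2 is what GCRMA writes and suits the range of 2.11 to 16.9. Depth has no meaning for arrays, and their number limits the precision.

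Genes were assigned from the platform annotation, which gave 1 gene for 20832 of 21268 listed probe sets. Gene identifiers of 20764 of these, and of all 19 probe sets described here, matched the RefSeq table of GRCr8. Promoter sequences are RefSeq's.

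A probe set was tested if above 2.28, the 40th percentile of all values, in at least 3 of the 15 arrays, and manufacturer's controls were left out, giving 18938. The 3 groups were fitted together with limma 3.58.1 in R 4.3.3 (lmFit and eBayes, without trend or robust options), with two-sided tests and Benjamini-Hochberg adjustment within each comparison. Errors of changes are limma's standard errors. The same steps were run on simulated arrays with independent noise, without the replicate division seen here. That check asked only for recovery of large changes, not of ones as small as those of Prkar1a and Prkacb. As in the submitters' design notes, replicates 4 and 5 at 10 nM were left out.

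Arrays of equal replicate number were only weakly alike. Of 12 same-number pairs, 6 had a correlation of deviations from group means above 0.1 (range -0.07 to 0.20). Among different-number pairs it was -0.37 for control 5 with 100 nM 6 and 0.35 for control 4 with 10 nM 3. The replicate numbers did follow the division into replicates 1, 2 and 6 and replicates 3, 4 and 5 in every group, so a shared structure remains. The fit has no replicate block, and results with such a block are given below.

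All probe sets of the 9 genes are named. Of the pathway lists, every gene with a called probe set is named (24 genes). The strongest probe set by mean stood for a gene in counts of genes. The genes, lists and markers were chosen with earlier results of these data known. Alternatives tried were a replicate block, no filter and a stricter filter, repeated quantile normalization, trend and robust variances, all 17 arrays, only the compared groups, the division of replicates as a term and within its sets, and leaving out each array.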

Additional observations from a re-analysis of the deposited data

Results flagged for a closer look

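In 5 of the 32 sets of 6 arrays examined, 1 array stood far from the rest of its group. For normally distributed values, chance alone gives such a gap in about 1 of 20 groups. For Akap1, 100 nM replicate 2 read 6.61 by 1369069_at, where the next array read 6.18 and the lowest 5.98. The other 4 cases have low signal, with every array of these groups at 3.38 or below. Near the floor, where arrays can share the same value, that rate does not apply. By 1388070_a_at (Akap1), 100 nM replicate 6 read 2.62 and control replicate 3 read 2.48, with 2.19 at the low end of both groups. By 1371059_at (Prkar2a), 100 nM replicate 6 read 3.07 (next 2.50) and control replicate 3 read 3.38 (next 2.55). No called probe set is among these.

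The 2 set-aside 10 nM arrays entered no comparison, and both lay above the highest control for 6 probe sets. Sphkap read 7.06 and 8.11 there, against a highest control of 5.37. Prkar2b read 9.53 and 9.89, against 9.13. Prkar1a read 13.11 and 13.15 by 1388375_at, against 12.87, and 12.07 and 12.10 by 1373951_at, against 11.87. Prkaca, at 10.70 and 10.72, exceeded its highest control of 10.60 by less, and Prkar1b, at 9.73 and 9.84, had a highest control of 9.72. The difference of these arrays from the controls was not tested.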

How the results depend on the processing

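Sphkap, Prkar2b and 1388375_at of Prkar1a kept their calls in every fit without 1 array and under every alternative on all replicates. Without 1 array, Sphkap ranged from 3.23 to 3.46 at 10 nM and 3.10 to 3.42 at 100 nM, and Prkar2b from 1.06 to 1.20 at 10 nM and 1.02 to 1.11 at 100 nM. The count of called probe sets was 4 to 6 at 100 nM and 3 to 4 at 10 nM without 1 array, and 0 to 0 between the doses. It was 2 within replicates 1, 2 and 6 and 2 within replicates 3, 4 and 5 at 100 nM (5 over all replicates), and 2 within replicates 1, 2 and 6 at 10 nM (4 over all replicates), with fewer arrays in each. Comparisons with 10 nM within replicates 3, 4 and 5 were not run, since 1 array falls there.

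With the replicate block, 4 probe sets were called at 100 nM and 3 at 10 nM. Sphkap was then at 3.31 for 10 nM and 3.25 for 100 nM, Prkacb (-0.16, adjusted p = 0.0707) lost its call at 100 nM, and 1373951_at of Prkar1a (0.25, adjusted p = 0.0537) at 10 nM. Of the pathway genes, 12 of 15 kept their call with the block at 100 nM, all but Adcy6 (adjusted p = 0.0703), Crtc2 (0.0744) and Ppp3ca (0.0642), and 6 of 9 at 10 nM, all but Adcy6 (0.152), Pde2a (0.101) and Per1 (0.0646). Repeated quantile normalization also ended the call of 1373951_at at 10 nM. The call of Prkacb ended as well with the stricter filter, with all 17 arrays and with only the compared groups in the fit. Over 1162 repeats of a probe set's change, 1086 kept direction and side of the threshold, 46 uncalled values changed sign, 29 calls were lost, 1 was gained and no called value changed sign.

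Over all probe sets, 2065 were called at 100 nM (1442 to 2616 without 1 array, 1008 with all 17 arrays, 200 within replicates 1, 2 and 6) and 2004 at 10 nM (1020 to 2495 without 1 array, 559 within replicates 1, 2 and 6). Between the doses 271 were called. That count was 429 with the replicate block, 22 without the filter, 3 with only those groups in the fit, 531 with the division as a term, 134 within replicates 1, 2 and 6, and 3 to 619 without 1 array. The cause of these shifts was not tested. Signals near the floor, as for 1397828_at of Sphkap, leave no measurable change.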

Other observations

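In the 2 set-aside 10 nM arrays, 3 probe sets lay below all 15 kept arrays. Akap12 read 9.83 and 10.04 by 1368869_at, where the lowest kept array read 10.52, and 6.09 and 6.00 by 1368868_at, where the lowest read 6.10. Prkar2a read 11.95 and 11.97 by 1373400_at, below a lowest kept value of 12.06. Their summed mesenchymal signal was 17.04 and 17.17, and their yield of labelled cRNA, per the labels, was 25.66 and 33.68 µg, against 48.6 to 64.16 µg for the kept 10 nM arrays. The RNA integrity number was 10 for both set-aside arrays and for kept replicate 3. For kept 10 nM replicates 1 and 2 none is given. The second Sphkap probe set, 1397828_at, at most 2.26 on the kept arrays, read 2.92 on replicate 5.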
